A study of Mus musculus with 6 samples.

Results

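Replacement histone variants are histones whose genes lie outside the replication-dependent clusters. The 10 genes of this family examined here were found by their symbols among the 54532 genes of the expression table: *H3f3a* and *H3f3b*, *H2afz* and *H2afv*, *H2afx*, *H2afy*, *Cenpa*, *H1f0*, *H1fnt* and *Hils1*. RNA-seq was done on mouse testis cells labelled as STRA8+ germ cells, in 3 control libraries whose genotype label is Cre and 3 cKO libraries labelled as *Srsf1* knockout. The labels describe a conditional knockout and total RNA in all 6 libraries. The Cre driver, the age and strain of the mice, and whether the 3 libraries of a group came from separate mice were not given in the sources used here. The p-values therefore measure only the spread between these libraries, which may be technical. Values are FPKM, in which fragment counts are divided by gene length and by a library size, here 0.9711 to 1.052 times each library's summed fragments, and they measure mRNA, not protein.

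Canonical histones are made in S phase from clustered genes and are laid down behind the replication fork. Replacement variants are placed into nucleosomes by their own chaperones, also outside S phase, and mark promoters, centromeres, DNA breaks or silenced chromatin. Male germ cells go through an extensive histone exchange, in which variants first replace canonical histones in meiosis and spermatids, and transition proteins and protamines then replace most nucleosomes.

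The libraries held 15364511 to 17310353 fragments in controls and 14447887 to 15326722 in cKO. *Srsf1*, which encodes the serine/arginine-rich splicing factor targeted by the knockout, was at 84.7, 45.2 and 51.9 FPKM in Controls 1 to 3 and at 5.08, 4.94 and 5.17 FPKM in cKO 1 to 3, so that 8.36% of the control mean was left. The differentiating spermatogonia markers, *Stra8* among them, summed to 914 to 1030 FPKM in controls and 999 to 1120 FPKM in cKO. Of these 10 markers 1 fell, *Dmrtb1*, from 76.3 ± 8.18 to 29.5 ± 4.44 FPKM (SD, n = 3, adjusted p = 0.0003, limma), and the others were not called. The pachytene markers summed to 746 to 895 FPKM in controls and 130 to 152 FPKM in cKO, and 8 of 10 fell. The spermatid markers summed to 2540, 8390 and 2500 FPKM in Controls 1 to 3 and to 5.95 to 6.99 FPKM in cKO, and 10 of 10 fell, although the cells were labelled STRA8+. Control 2 stood apart by its high spermatid sum. Early meiotic markers summed to 848 to 1150 FPKM in controls and 826 to 1090 FPKM in cKO, and 3 of 10 fell, while of 8 tested markers of undifferentiated spermatogonia 1 rose and 1 fell. Of 28 somatic cell markers, 15 were tested and 2 rose, and their sum was 99.5 to 114 FPKM in controls and 157, 86.1 and 104 FPKM in cKO 1 to 3, so that cKO 1 stood apart by its somatic sum. *H2afx*, *H2afv* and *Cenpa* were also highest in cKO 1, and without it all 3 were called higher (log2 fold changes 1.26, 0.37 and 0.71, adjusted p = 0.00098, 0.048 and 0.038, limma). The tested somatic markers had a median log2 fold change of 0.285 over all 6 libraries. The part of somatic RNA in the rises of members was not tested. With 1 library left out, the markers called higher were 0 to 2 of the differentiating, 0 to 3 of the undifferentiated and 0 to 3 of the somatic list, and by limma-voom they were 2, 3 and 4. In none of these lists was a marker at 0 in all cKO libraries. In such bulk libraries, fewer cells of a type and less RNA per cell cannot be told apart.

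*H2afx* was the 1 member with a histone stem-loop, and 2 of its sequences are shown, the coding end that holds the site of its damage mark and the stem-loop. In the GENCODE M21 transcript (GRCm38) the last coding bases, at transcript positions 471 to 500, hold the codons of the serine that is phosphorylated at DNA breaks and of the glutamine that follows it (capitals). The serine is codon 140, counting the start codon. Downstream of the stop codon, at positions 542 to 567, lies a histone stem-loop (capitals), the element with which replication-dependent histone mRNAs end instead of a poly(A) tail. The annotated transcript is 1384 bases long and runs past the stem-loop, and where the *H2afx* mRNAs ended was not tested. A search of whole transcripts for its pattern, with variable bases left free, matched 72 of 21901 coding genes (0.329%). Free bases in the stem were not checked for pairing. Of the 72 genes, 46 have symbols that begin with Hist, H1 or H2, which need not all be histone genes. Of the 10 members, 1 matched.
H2afx coding end: aaggcctcgcaggccTCTCAGgagtactga
H2afx stem-loop: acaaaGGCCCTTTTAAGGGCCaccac

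The H3.3 and H2A.Z proteins are each encoded by a pair of genes with separate promoters, and 1 gene of each pair was called higher in cKO while the other was not called. Their upstream sequences are printed for that reason and were chosen after the values were seen. Each line gives the 250 bases before the RefSeq start of the gene (GRCm38.p6), 5′ to 3′ on the gene's strand. The *H3f3b* and *H3f3a* windows lie within the GENCODE spans of these genes, whose annotated 5′ ends are further upstream. Capitals mark CCAAT, the box bound by NF-Y, on either strand (ATTGG on the printed strand is the reverse), and TATAAA, the TATA box.
H3f3b, chr11:116024505-116024754, minus strand: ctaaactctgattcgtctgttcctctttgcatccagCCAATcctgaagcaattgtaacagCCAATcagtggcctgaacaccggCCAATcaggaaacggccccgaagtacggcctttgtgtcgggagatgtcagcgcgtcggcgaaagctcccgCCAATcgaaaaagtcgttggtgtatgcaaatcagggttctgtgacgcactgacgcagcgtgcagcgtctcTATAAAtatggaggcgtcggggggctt
H3f3a, chr1:180813606-180813855, minus strand: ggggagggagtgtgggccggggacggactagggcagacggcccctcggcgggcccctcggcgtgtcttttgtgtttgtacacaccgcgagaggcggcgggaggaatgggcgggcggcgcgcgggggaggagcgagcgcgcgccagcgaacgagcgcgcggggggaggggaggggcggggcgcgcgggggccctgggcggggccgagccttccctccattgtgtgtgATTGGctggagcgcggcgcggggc
H2afv, chr11:6444444-6444693, minus strand: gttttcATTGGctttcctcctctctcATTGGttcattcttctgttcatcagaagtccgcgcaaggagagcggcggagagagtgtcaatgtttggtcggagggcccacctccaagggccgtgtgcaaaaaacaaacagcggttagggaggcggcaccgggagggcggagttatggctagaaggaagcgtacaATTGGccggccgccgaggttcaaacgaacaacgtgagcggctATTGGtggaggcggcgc
H2afz, chr3:137864237-137864486, plus strand: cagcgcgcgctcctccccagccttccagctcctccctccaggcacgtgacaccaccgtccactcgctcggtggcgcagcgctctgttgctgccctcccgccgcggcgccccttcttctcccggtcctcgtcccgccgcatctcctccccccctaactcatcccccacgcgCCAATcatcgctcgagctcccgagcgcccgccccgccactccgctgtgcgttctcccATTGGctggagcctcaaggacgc

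*H3f3b* and *H2afv*, the genes of each pair that rose, each held 4 CCAAT boxes in this window, whereas *H3f3a* held 1 and *H2afz* held 2. At least 4 boxes were found in 0.84% of 32851 promoters of the same length, and at least 1 in 33.85%. The cutoff of 4 equals the count in *H3f3b* and *H2afv*, so the 0.84% is a description and no test. Among the 9 members matched to a RefSeq promoter (all but *H2afx*), 6 held at least 1 CCAAT. *Cenpa*, which rose as well, held 2, and *H1f0*, which also rose, held 0. *Hils1* held 1, and *H1fnt* and *H2afy* held 0. TATAAA, searched on both strands, was found in 1 of the 9 members, *H3f3b*, and in 12.37% of all promoters. The cyclic AMP response element TGACGTCA and the E2F motif TTCGCGC, also searched on both strands, were in 0 of the 9 members, against 1.55% and 1.28% of all promoters. These matches describe letters in the sequence and not binding.

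**Figure D1:**
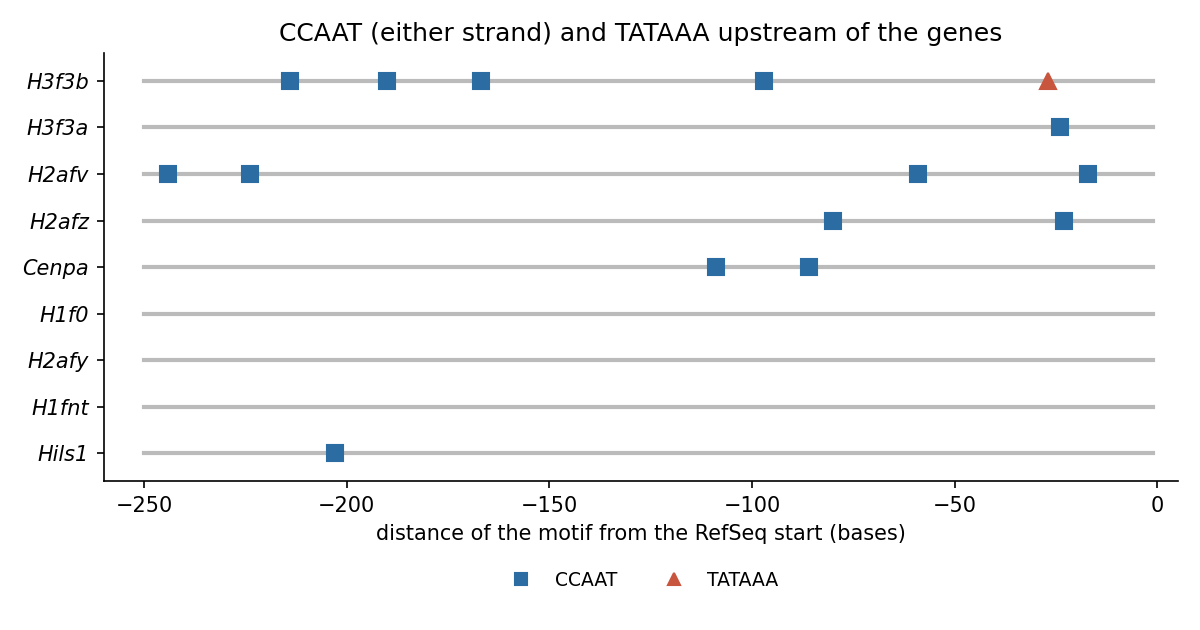
Positions of CCAAT (both strands) and TATAAA in the 250 bases before the RefSeq start of the 9 members with a promoter sequence. The horizontal axis is the distance to the start in bases, and each mark is 1 match. *H3f3b* and *H2afv* each show 4 CCAAT marks, and *H3f3b* shows the TATAAA mark at -27.

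To compare the groups, a linear model (limma) was fitted to log2(FPKM + 1) of the 15451 genes averaging 1 FPKM or more over the libraries, and a gene was called at a Benjamini-Hochberg adjusted p under 0.05. All 10 members passed the filter, *H1fnt* and *Hils1* through the controls alone. Of the markers called lower, *Ccna1*, *Pgk2* and the spermatid genes other than *Prm1* and *Spaca1* also passed through the controls alone. Of the members, 5 (50%) were higher in cKO (*H2afx*, *H1f0*, *Cenpa*, *H3f3b* and *H2afv*), 2 (20%) were lower (*H1fnt* and *Hils1*) and 3 were not called (*H2afz*, *H2afy* and *H3f3a*). Of all tested genes 34.0% were called, 11.8% higher and 22.2% lower. The groups did not overlap for 8 members, 5 above and 3 below, which was so for 50.4% of all tested genes (21.8% above and 28.6% below). The median log2 fold change was 0.23 over the members, also with *H1fnt* at its bound, and -0.01 over all tested genes.

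**Figure D2:**
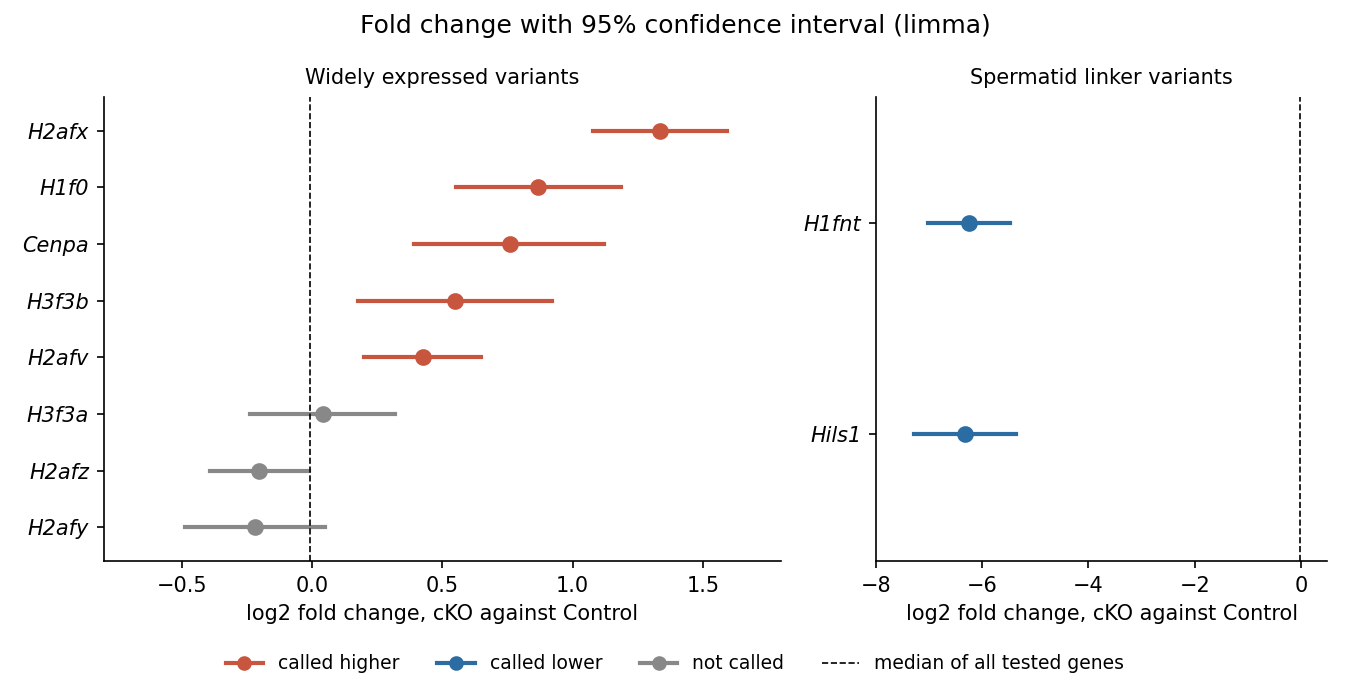
Log2 fold change of the 10 members, cKO minus Control, on the log2(FPKM + 1) scale, with 95% confidence intervals from limma (n = 3 libraries per group). Colours give the call and the dashed line the median of all tested genes. *H2afx* lies highest at 1.34, and the spermatid linker histones *H1fnt* and *Hils1* lie below -6.

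*H3f3a* and *H3f3b* encode the same H3.3 protein, which is placed into active genes by the HIRA complex and into telomeric and repeat chromatin by ATRX and DAXX. Their coding sequences of 411 bases share 316 (76.9%). *H3f3b* (chr11:116021912-116027962, minus strand, 6 exons) was the most abundant member in both groups. It was at 387, 330 and 362 FPKM in Controls 1 to 3 and at 421, 637 and 544 FPKM in cKO 1 to 3. Every cKO library exceeded every control, but the gap between cKO 1 and Control 1 was small beside the spread within cKO. The means were 360 ± 28.5 and 534 ± 109 FPKM (SD, n = 3), a ratio of 1.48, with a log2 fold change of 0.55 ± 0.157 (SE) and an adjusted p of 0.034 by limma. This call is not firm. The adjusted p was 0.066, 0.087 and 0.084 without Control 1, 2 and 3, 0.071 without cKO 2, 0.10 without cKO 3 and 0.08 with no filter on low values.

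*H3f3a* (chr1:180800832-180813943, minus strand, 4 exons) was at 40.8, 56.7 and 47.3 FPKM in Controls 1 to 3 and at 48.3, 48.9 and 50.4 FPKM in cKO 1 to 3. The cKO values all lay inside the control range. The log2 fold change was 0.04, with a 95% interval of -0.24 to 0.32 (adjusted p = 0.82, limma). Without Control 1 its sign turned, to -0.07. Of the 100-base windows of *H3f3a*, 79.2% were unique among annotated transcripts, against 98.1% for *H3f3b*, so its level is the less certain of the pair. Most of the shared windows, 545, lie in *Gm17275*, and 168 are found in *H3f3c*. *Gm17275* and *H3f3aos* overlap *H3f3a* on the other strand and were at 1.75 to 3.36 and 1.23 to 2.10 FPKM. Whether the counting used strand was not given in the sources used here.

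Together the H3.3 genes summed to 427.8, 386.9 and 409.7 FPKM in Controls 1 to 3 and to 469.0, 686.1 and 594.3 FPKM in cKO 1 to 3, a difference with p = 0.1 by a two-sided exact permutation test, the smallest p that 3 against 3 libraries allow. *H3f3b* supplied 88.1% ± 2.58 of this sum in controls and 91.4% ± 1.59 in cKO (SD, n = 3). These shares overlapped and differed by 3.27 percentage points (p = 0.2, two-sided exact permutation test). The difference was 1.9 points without Control 2 and up to 4.46 points with another library left out.

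Of 8 tested genes for chaperones that handle H3.3, 1 was higher, 0 were lower and 7 were not called (2 were lower at an unadjusted p under 0.05, and 0 were lower by limma-voom), with a median log2 fold change of -0.02. The gene called was *Atrx*, which encodes the remodeler that works with DAXX. It was at 3.23, 3.12 and 3.04 FPKM in controls and at 4.56, 4.53 and 4.39 FPKM in cKO (log2 fold change 0.41, adjusted p = 0.015, limma). With 1 library left out, the count of higher genes was 0 to 1, and it was 0 without Control 3 and without cKO 3. The count of lower genes was also 0 to 1, and it was 1 without cKO 1. *Daxx* had a log2 fold change of -0.32 (adjusted p = 0.06) and *Asf1a*, which hands H3 and H4 to HIRA, one of -0.31 (adjusted p = 0.059). For both, all cKO libraries lay below all controls without passing the test. *Hira* itself was at 4.52 ± 0.501 and 4.39 ± 0.687 FPKM (SD, n = 3).

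*H2afz* and *H2afv* encode H2A.Z.1 and H2A.Z.2, near-identical proteins of 128 residues that flank promoters and are put in place by the SRCAP and p400 remodelers. Their coding sequences of 387 bases share 306 (79.1%). *H2afz* (chr3:137864487-137866922, plus strand, 5 exons) was at 135, 129 and 135 FPKM in Controls 1 to 3 and at 118, 124 and 105 FPKM in cKO 1 to 3. Every cKO library lay below every control, yet the difference did not pass (log2 fold change -0.20, 95% interval -0.39 to -0.01, adjusted p = 0.095, limma). Only 74.3% of its 100-base windows were unique, and the others are shared mainly with annotated transcripts of *Gm8203* and *Tmcc1*.

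*H2afv* (chr11:6427229-6444443, minus strand, 5 exons, all windows unique) went the other way. It was at 59.3, 70.5 and 62.2 FPKM in Controls 1 to 3 and at 93.4, 78.8 and 86.5 FPKM in cKO 1 to 3, without overlap. The means were 64.0 ± 5.8 and 86.2 ± 7.3 FPKM (SD, n = 3), a ratio of 1.35, with a log2 fold change of 0.42 ± 0.095 (SE) and an adjusted p of 0.014 by limma. The adjusted p was 0.051 without Control 1, 0.05, just above the threshold, without Control 3, and 0.052 without cKO 3.

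The sum of the H2A.Z genes overlapped between the groups. It was 194.3, 199.1 and 197.5 FPKM in Controls 1 to 3 and 211.7, 202.7 and 191.5 FPKM in cKO 1 to 3 (p = 0.5, two-sided exact permutation test). Within it, *H2afz* made up 69.5, 64.6 and 68.5% in controls and 55.9, 61.1 and 54.8% in cKO. The share was lower by 10.2 percentage points in cKO and did not overlap between groups (67.5% ± 2.58 against 57.3% ± 3.36, SD, n = 3). At p = 0.1 the exact permutation test reached the smallest value that it can give.

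**Figure D3:**
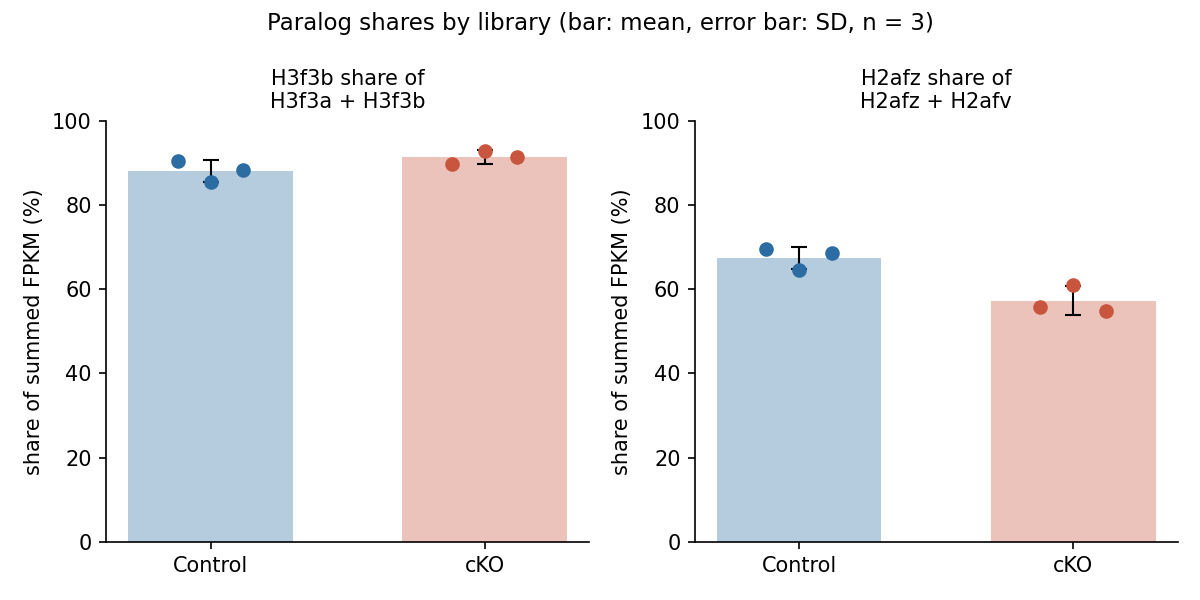
Share of the summed FPKM of each gene pair, in percent, that came from *H3f3b* (of *H3f3a* plus *H3f3b*) and from *H2afz* (of *H2afz* plus *H2afv*). Points are libraries and bars are means with SD (n = 3 per group), and the *H2afz* share averages 67.5% in Control and 57.3% in cKO while the *H3f3b* shares overlap.

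Of 18 tested genes of H2A.Z exchange, 3 were higher, 3 were lower and 12 were not called, with a median log2 fold change of 0.03. *Anp32e*, which encodes the chaperone that takes H2A.Z off chromatin, rose from 17.7 ± 0.059 to 23.9 ± 2.45 FPKM (SD, n = 3, adjusted p = 0.011, limma). *Brd8* and *Ruvbl1* rose by 0.34 and 0.27 on the log2 scale (adjusted p = 0.019 and 0.031). *Znhit1*, which encodes an SRCAP subunit, fell the most. It was at 34.0, 36.4 and 31.3 FPKM in controls and at 16.2, 15.0 and 17.9 FPKM in cKO (log2 fold change -1.01, adjusted p = 0.00024). *Ruvbl2* and *Yeats4* fell by 0.41 and 0.32 on the log2 scale (adjusted p = 0.0077 and 0.015). *Ep400*, which encodes p400, and *Srcap* were not called, at log2 fold changes of -0.24 and 0.37 (adjusted p = 0.063 and 0.066, limma). The count of higher genes was 1 without Control 1, Control 3, cKO 1 or cKO 3, and 6 in the FPKM recomputed from fragments.

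*H2afx* (chr9:44334694-44336077, plus strand, 1 exon) encodes H2AX, which ATM and related kinases phosphorylate around DNA breaks and which is needed to silence the sex chromosomes in meiosis. It was at 55.3, 67.9 and 56.1 FPKM in Controls 1 to 3 and at 169, 145 and 142 FPKM in cKO 1 to 3. The lowest cKO library stood well above the highest control. The means were 59.7 ± 7.06 and 152 ± 14.8 FPKM (SD, n = 3), a ratio of 2.55, with a log2 fold change of 1.34 ± 0.109 (SE) and an adjusted p of 0.00015 by limma. Among all tested genes, 74 had a larger rise. By level *H2afx* stood below *H2afv* in controls and next to *H3f3b* at the top in cKO. Of its 100-base windows 95.3% were unique. Of the shared windows, 42 lie in *Gm44335*, a miRNA gene that overlaps *H2afx* on the other strand and was listed at 0 in all 6 libraries, and up to 18 in any 1 of the clustered H2A genes.

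Of 15 tested genes listed with the H2AX mark, 2 were higher, 2 were lower and 11 were not called. Their median log2 fold change was 0.06, and not all of them write or read the mark. *Atm*, which encodes a kinase of the serine printed above, rose from 33.3 ± 3.93 to 50.9 ± 6.55 FPKM (SD, n = 3, adjusted p = 0.01, limma). *Trp53bp1*, which encodes a reader of damaged chromatin, rose by 0.27 on the log2 scale (adjusted p = 0.037). *Rnf168*, which encodes a ubiquitin ligase that acts after MDC1, fell by 0.32 on the log2 scale (adjusted p = 0.018). *Hspa2*, which encodes a germ cell HSP70 chaperone rather than a kinase or reader and is also in the pachytene marker list, fell from 172 ± 12.7 to 77.2 ± 12.9 FPKM (adjusted p = 0.00052). The kinase gene *Atr* was at 37.7 ± 6.35 and 37.2 ± 5.2 FPKM and the adaptor gene *Mdc1* at 108 ± 17.4 and 106 ± 9.41 FPKM. With any 1 library left out, 1 of these genes was higher and 1 to 2 were lower.

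*H2afy* (chr13:56073619-56136361, minus strand, 9 exons) encodes macroH2A1, an H2A with a large extra domain that gathers on the inactive X and on the sex chromosomes of spermatocytes. At 8.87, 10.1 and 8.72 FPKM in Controls 1 to 3 and 6.97, 7.53 and 8.94 FPKM in cKO 1 to 3, its groups overlapped through cKO 3. The log2 fold change was -0.22, with a 95% interval of -0.49 to 0.05 (adjusted p = 0.18, limma).

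*Cenpa* (chr5:30666777-30674830, plus strand, 5 exons) encodes the H3 variant that marks centromeres. It was at 7.81, 11.8 and 9.30 FPKM in Controls 1 to 3 and at 18.0, 14.7 and 17.9 FPKM in cKO 1 to 3, without overlap. The means were 9.65 ± 2.03 and 16.9 ± 1.88 FPKM (SD, n = 3), a ratio of 1.75, with a log2 fold change of 0.76 ± 0.154 (SE) and an adjusted p of 0.0093 by limma. *Hjurp*, which encodes its chaperone, was at 29.5 ± 5.5 and 29.6 ± 1.72 FPKM and was not called. Of 20 tested genes of CENP-A loading and the centromere, 3 were higher, 3 were lower and 14 were not called, with a median log2 fold change of -0.05. *Cenpw* and *Cenph* rose by 0.54 and 0.35 on the log2 scale (adjusted p = 0.036 and 0.038, limma). *Cenpx*, *Cenpu* and *Cenpn* fell by 0.51, 0.43 and 0.38 on the log2 scale (adjusted p = 0.0034, 0.041 and 0.0059). These 5 genes encode inner kinetochore proteins. The count of higher genes was 1 without any 1 of the controls or without cKO 3.

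*H1f0* (chr15:79028450-79030504, plus strand, 1 exon) encodes H1.0, a linker histone that builds up in cells that stop dividing or differentiate. It was at 60, 50.3 and 60.5 FPKM in Controls 1 to 3 and at 91.7, 125 and 99.1 FPKM in cKO 1 to 3. The groups were well apart, with cKO 2 the highest. The means were 56.9 ± 5.79 and 105 ± 17.7 FPKM (SD, n = 3), a ratio of 1.85, with a log2 fold change of 0.87 ± 0.134 (SE) and an adjusted p of 0.0028 by limma.

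*H1fnt* (chr15:98255986-98257293, minus strand, 1 exon) encodes H1T2, a linker histone of round and elongating spermatids that is needed for chromatin condensation. It was at 56.8, 133 and 54.8 FPKM in Controls 1 to 3, from 1224, 2676 and 1239 fragments, and 0 fragments were counted in each cKO library. A count of 0 allows up to 3 fragments, which is 0.146, 0.157 and 0.151 FPKM in cKO 1 to 3. Against the mean of these floors per library, *H1fnt* was at least 540-fold lower in cKO than the control mean (adjusted p = 1.9e-05, limma). The fitted log2 fold change of -6.24 depends on the pseudocount and is no bound. *Hils1* (chr11:94967593-94968456, plus strand, 1 exon) encodes a linker-like histone of elongating spermatids. It was at 58.2, 184 and 65.4 FPKM in Controls 1 to 3, from 828, 2441 and 977 fragments, and at 0.147, 0.158 and 0.0761 FPKM in cKO 1 to 3, from 2, 2 and 1 fragments. The ratio of the summed fragments, Control to cKO and scaled by the library sizes behind the deposited FPKM, was 788, with an exact 95% interval of 337 to 2430 that covers counting error only (adjusted p = 5.1e-05, limma).

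Both spermatid linker genes were highest in Control 2, and so were the spermatid markers. The highest control was 2.44 times the lowest for *H1fnt* and 3.17 times for *Hils1*, against 3.75 for *Tnp1*, 3.74 for *Tnp2*, 3.49 for *Prm1* and 3.15 for *Prm2*, which encode transition proteins and protamines. For the other 8 members this ratio was between 1.05 and 1.51. Without Control 2 both linker genes were still called lower, but the ratio of *Hils1* was 487 (exact 95% interval 208 to 1500) and the bound of *H1fnt* at least 369-fold. The part of spermatid RNA in the controls in these falls was not tested. *Hils1* lies inside the span of *Sgca* on the other strand, and *Sgca* was itself lower, at 3.67, 3.35 and 2.30 FPKM in controls and 1.06, 0.748 and 0.796 FPKM in cKO (adjusted p = 0.0029, limma).

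**Figure D4:**
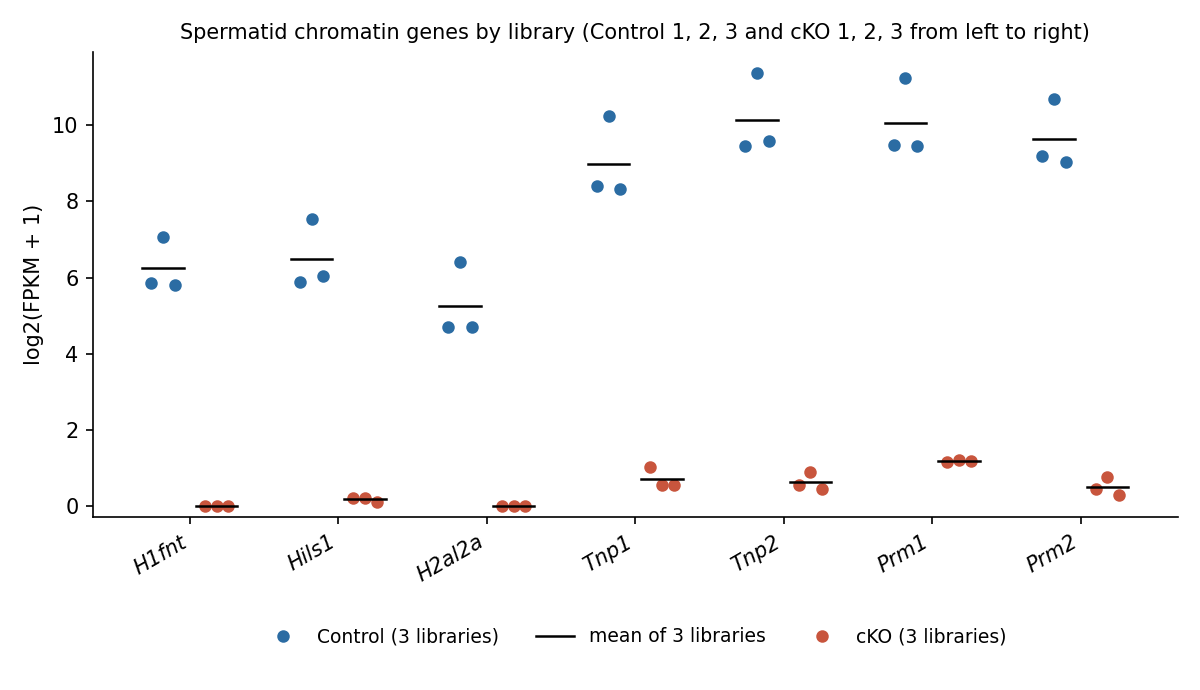
The vertical axis is log2(FPKM + 1) of the spermatid linker histone genes *H1fnt* and *Hils1*, the H2A variant gene *H2al2a*, and transition protein and protamine genes in each of the 6 libraries, with lines for the group means of log2 values (n = 3). In every gene the highest point is Control 2, and the 3 cKO points lie at or below 1.32 FPKM.

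Of 12 tested genes of chromatin replacement in spermatids, 0 were higher (also 0 at an unadjusted p under 0.05 and by limma-voom), 9 were lower and 3 were not called, with a median log2 fold change of -2.12. *Tnp2*, *Prm2* and *Prm1* had the largest falls, from 1380 ± 1100, 920 ± 634 and 1280 ± 995 FPKM to 0.56 ± 0.268, 0.421 ± 0.24 and 1.27 ± 0.0448 FPKM (SD, n = 3; adjusted p = 1.7e-05, 1.2e-05 and 1.8e-05, limma). Of these 12 genes, the transition protein and protamine genes *Tnp1*, *Tnp2*, *Prm1* and *Prm2* are also among the spermatid markers. *Tnp1*, *Tnp2*, *Prm2* and *Prm3* passed the filter through the controls alone.

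**Figure D5:**
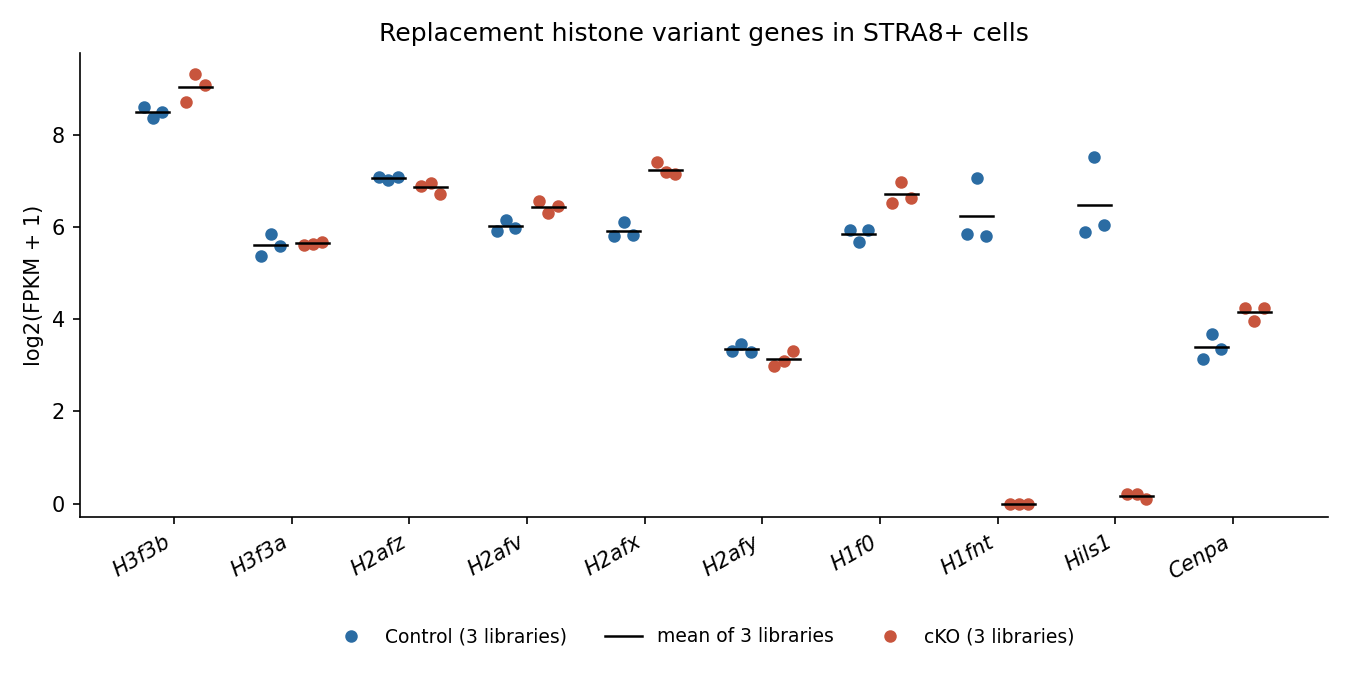
The vertical axis is log2(FPKM + 1) of each of the 10 members in the 3 Control and 3 cKO libraries (points), with lines for the group means of log2 values. *H2afx*, *H1f0*, *Cenpa*, *H3f3b* and *H2afv* have all cKO points above all Control points, and *H1fnt* and *Hils1* are at or near 0 in cKO.

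Ordered by control level, per gene length, the members ran *H3f3b*, *H2afz*, *Hils1*, *H1fnt*, *H2afv*, *H2afx*, *H1f0*, *H3f3a*, *Cenpa* and *H2afy*. The ranges of neighbours overlapped except between *H3f3b* and *H2afz* and between *H3f3a* and *Cenpa*. In cKO the order was *H3f3b*, *H2afx*, *H2afz*, *H1f0*, *H2afv*, *H3f3a*, *Cenpa*, *H2afy*, *Hils1* and *H1fnt*, and the ranges overlapped only between *H2afz* and *H1f0* and between *H1f0* and *H2afv*. This control order is by means, and Control 2 carries the place of the spermatid linkers in it. By control median *Hils1* was at 65.4, *H2afv* at 62.2, *H1f0* at 60 and *H1fnt* at 56.8 FPKM.

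A further 17 histone variant genes gave 12 that were tested, of which 6 were higher, 3 were lower and 3 were not called, with a median log2 fold change of 0.41, which was also 0.41 with the genes at 0 in cKO put at their bound. All 3 lower genes passed the filter through the controls alone. The largest rises were *Hist1h2aa*, a testis H2A gene, from 2.61 ± 0.166 to 9.17 ± 2.6 FPKM, *Hist1h1t*, the linker histone gene of spermatocytes, from 1.21 ± 0.458 to 4.42 ± 1.46 FPKM, and *H2afj*, from 7.83 ± 1.74 to 16.7 ± 0.687 FPKM (SD, n = 3; adjusted p = 0.0016, 0.0077 and 0.0025, limma). *H2al2a* and *H2al1n*, which encode short H2A variants of spermatids, were at 24.8, 83.3 and 25.0 FPKM and at 4.61, 17.5 and 4.72 FPKM in Controls 1 to 3, and had 0 fragments in every cKO library. That is at least 122-fold and 23.3-fold lower against the mean floor of 3 fragments per library, and at least 68.1-fold and 12.1-fold lower without Control 2. *H2afy3* was at 3.44, 1.06 and 2.18 FPKM in controls and had 1 fragment in the 3 cKO libraries together, against 123 in controls (a ratio of 114, exact 95% interval 20.1 to 4540 for counting error only). Like the spermatid linkers, *H2al2a* and *H2al1n* were highest in Control 2, whereas *H2afy3* was lowest there.

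General histone chaperones, which serve canonical and variant histones alike, gave 1 higher, 1 lower and 10 not called of 12 tested, with a median log2 fold change of 0.04. *Smarca5*, which encodes the ISWI remodeler ATPase, rose from 81.2 ± 7.06 to 115 ± 10 FPKM (SD, n = 3, adjusted p = 0.0073, limma). *Chaf1a*, which encodes the large subunit of the replication chaperone CAF-1, fell by 0.26 on the log2 scale (adjusted p = 0.037). With 1 library left out, 1 gene of this list was lower without Control 2 and 0 in each of the other 5 fits.

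The likeness of profiles was measured as the root mean square difference of centred log2(FPKM + 1) over the 6 libraries, among 95 genes of the related lists. *H2afj* was nearest to *H2afx* (0.21) and to *Cenpa* (0.18), *H2bfm* to *H1f0* (0.16), *Cenpw* to *H3f3b* (0.11), *Brd8* to *H2afv* (0.09), *Kat5* to *H2afz* (0.07), *Chaf1a* to *H2afy* (0.11) and *Ssrp1* to *H3f3a* (0.14). *H2al2a* was nearest to both *H1fnt* (0.51) and *Hils1* (0.53), at larger distances than for any of the other 8 members. These values are descriptions over 6 libraries that share their group means.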

How the data were processed

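The authors deposited 1 table of FPKM per gene and library for the 6 libraries, with gene lengths; the submitters' processing notes name HISAT2 2.0.5 and mm10, and the counting tool and its use of strand are not given in the sources used here. FPKM times gene length gave whole fragments (within 0.02) for 100% of values, which set the depths. The library sizes behind the FPKM were 0.9711 to 1.052 of the summed fragments, and median-of-ratios factors of the deposited values were 1.006 in every library. The deposited FPKM were analysed as log2(FPKM + 1) with limma 3.58.1 in R 4.3.3 (trended variance, no block) over genes averaging 1 FPKM or more, with Benjamini-Hochberg adjustment at 0.05. Alternatives were another pseudocount, other filters and scalings, limma-voom on the recovered fragments, a replicate block and leaving out each library. Gene models were GENCODE M21 (GRCm38), whose starts and ends were identical for 98.33% of 54409 matched genes, and promoters were from RefSeq. Named are the members, *Srsf1*, overlapping genes, the nearest profile per member, and up to 3 called rises and 3 falls per related list; 1 gene that the rule names is not reported here, and other genes were named after their values were seen. Members and lists were chosen with earlier results of these data known. Scripts were tested on simulated data.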

Additional observations from a re-analysis of the deposited data

How the results depend on the processing

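The results below were refitted under 15 alternatives, of which median-of-ratios scaling could change almost nothing, since its factor was 1.006 in every library. *H2afx* (log2 fold change 1.26 to 1.43), *H1f0* (0.74 to 0.96), *Cenpa* (0.63 to 0.94), *H1fnt* (-11.47 to -5.83) and *Hils1* (-9.04 to -5.80) kept their calls in every one, and *H2afz* (-0.25 to -0.11) was called in none. The number of members called higher was 5, but 4 with no filter on low values, 3 with a replicate block and 3 to 5 with 1 library left out (3 without Control 1, Control 3 or cKO 3), and 2 members were lower throughout. The 2 calls that were lost were *H2afv* (0.37 to 0.49 with 1 library left out; 0.42, adjusted p = 0.06, with the block) and *H3f3b* (0.41 to 0.71 with 1 library left out; 0.55 with no filter, adjusted p = 0.08, and 0.55 with the block, adjusted p = 0.081). *H3f3a* ranged from -0.072 (without Control 1) to 0.16 with 1 library left out and *H2afy* turned to 0.014 under quantile normalization. That normalization moved the median of all genes to 0.20 and made 64.6% of calls higher, against 34.6%. The genes called higher were 1821, but 2287 in FPKM recomputed from fragments, 4856 under quantile normalization, 891 with the block and 969 to 1767 with 1 library left out. The genes called lower were 3437, but 1950 among those with a mean of at least 5 FPKM, where fewer genes were tested. Limma-voom on recovered fragments called 2499 higher and 3321 lower. The labels do not say whether same-numbered libraries were paired. Correlations of same-numbered deviations were -0.00138, -0.111 and 0.0161, and those of other pairings ran from -0.155 to 0.135. With so few libraries these values cannot settle it. The replicate block changed no other member's call. Of the counts in the related and marker lists, 74 moved by over 1.5 times and 316 did not. Under quantile normalization 5 differentiating, 4 undifferentiated and 6 somatic markers were higher. Other causes were not tested. Members near 0 in cKO are limited by depth to the bounds given, and 3 libraries per group limit the permutation tests to p = 0.1.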
